A study of Saccharomyces cerevisiae with 6 samples.

Results

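The genes described here come from the budding yeast Saccharomyces cerevisiae. They encode enzymes and transporters of peroxisomal fatty acid oxidation, the peroxins that build the peroxisome, and transcription factors that switch on the enzyme genes. They were chosen by name, as the genes of a list to which a probe set of the value table is annotated. No measured value entered that rule, but the list was drawn up with earlier results of these data known. The list holds 39 of the 5656 genes measured, namely 15 enzymes and transporters, 22 peroxins and the regulators OAF1 and PIP2. All 39 had a probe set and all 39 entered the fit, in which 5462 genes were tested.

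In yeast, fatty acids are broken down in the peroxisome alone. A fatty acid is activated with coenzyme A, carried across the membrane and shortened in a cycle that an oxidase, a multifunctional enzyme and a thiolase run in turn, and the acetyl units leave as carnitine esters or through the glyoxylate cycle. Peroxins assemble the membrane, import folded enzymes from the cytosol and control the size and number of the organelles. Oleate induces the enzyme genes through the activator pair Oaf1 and Pip2 together with Adr1, while glucose represses them, and many peroxin genes are expressed whether or not fatty acids are present.

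Messenger RNA was measured on 6 Affymetrix yeast arrays, 1 for each of 6 conditions, so that no condition has a replicate. Every sample comes from strain YSX3, a MATalpha strain whose chromosomes carry the xylose pathway genes of Pichia stipitis, with leu2::LEU2-XYL1 for the reductase, ura3::URA3-XYL2 for the dehydrogenase and Ty3::NEO-XYL3 for the kinase, or from its respiration-deficient derivative FPL-YSX3P, called petite here; all cultures used rich YP medium. Aerobic cells grew on glucose or xylose at 20 g/L up to an OD600 of 1, and oxygen-limited cells on either sugar at 40 g/L up to an OD600 of 30, so that the oxygen comparison also spans sugar amount and cell density. Petite cells on glucose were harvested at an OD600 of 1, and the petite xylose sample held such cells after 24 hours in xylose medium; how the derivative lost respiration is not given in the sources used here.

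Values are linear intensities scaled to a common array median, and the deposited medians ran from 127 to 166. The 25th percentile, 61.7, served as a floor to which dimmer values were raised before the log2 step, and 88 to 90.5% of the measured genes lay above it on each array. The sugar labels were checked on HXT7, a high-affinity hexose transporter gene repressed by glucose, which lay between 376 and 620 on the 3 glucose arrays and between 3404 and 5378 on the 3 xylose arrays. The summed intensity of 8 protein genes of the mitochondrial genome was 223 and 305 on the petite arrays and 1673 to 4130 on the others. Of these genes COX3 went the other way, at 137 and 204 on the petite arrays against 58 and 44 on the aerobic ones, and it made up most of the petite sums.

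Of the 39 genes, 29 lay above the floor on all 6 arrays, among them 9 of 15 enzyme and transporter genes and 18 of 22 peroxin genes. The number above the floor on single arrays was 33 for aerobic glucose, 35 for aerobic xylose, 32 for oxygen-limited glucose, 35 for oxygen-limited xylose, 36 for petite glucose and 39 for petite xylose. Petite xylose was the array with the highest value for 14 genes, oxygen-limited xylose for 11, aerobic xylose for 6, oxygen-limited glucose for 4, and each of the other glucose arrays for 2. Among the 15 enzyme and transporter genes, 7 had their highest value on petite xylose and 1 on any glucose array, that of aerobic culture. Among the 22 peroxin genes the highest array was a glucose one for 7.

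**Figure D1:**
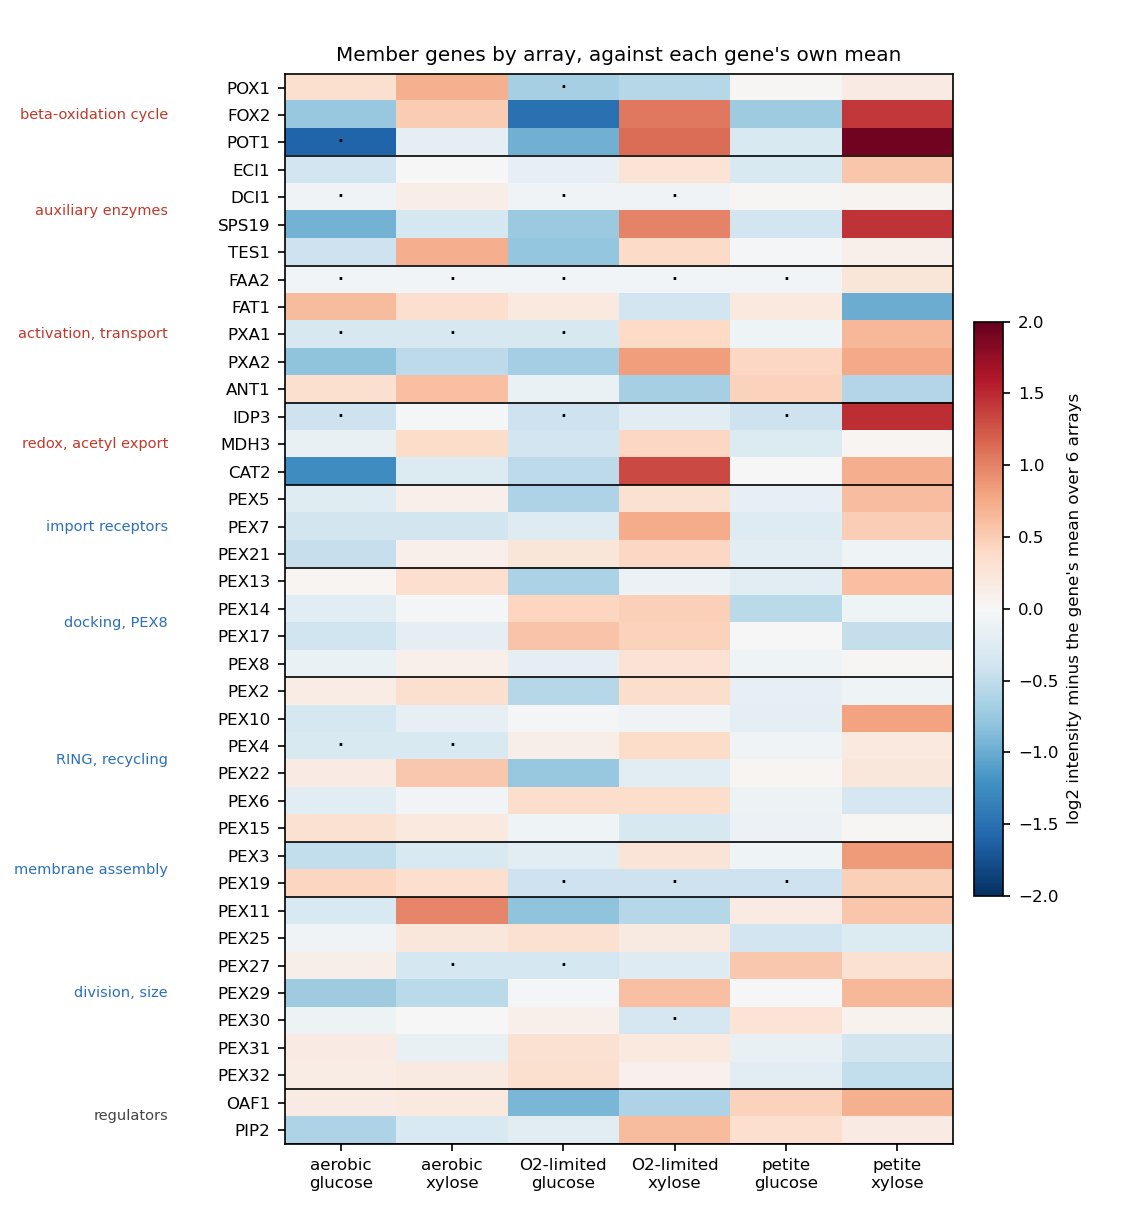
Heat map of the 39 genes (rows, grouped by role) on the 6 arrays (columns); colour is log2 intensity minus the mean of the same gene over 6 arrays, and a dot marks a value at or under the floor of 61.7. The strongest colours stand in the rows of FOX2, POT1, SPS19, IDP3 and CAT2, and the rows of most peroxin genes are pale.

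The first comparison set xylose against glucose over the 3 backgrounds. The petite pair is not matched in culture, since its xylose cells had been moved to xylose medium and not grown on it. In that pair, sugar cannot be told apart from this difference in culture, and the fitted xylose estimates include the pair. On xylose, POT1, the thiolase of the cycle, rose 3.74-fold, and 0 of the 39 genes fell. It was 1 of the 37 genes (0.677% of 5462) that limma called higher at an adjusted p under 0.05, while 4 (0.0732%) were called lower. The other 38 did not pass. Of the 39 estimates, 30 lay above 0, with a median of 0.33 on the log2 scale, against 46.8% of all genes above 0 and a median of -0.03. At an unadjusted p under 0.05 limma found 12 of the 39 genes higher and 1 lower, against 12% and 9.79% of all genes.

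Of the genes of the cycle itself, POT1 and FOX2 were high on xylose, and POX1 differed between its probe sets. The intensity of POT1 was 60 on glucose and 163 on xylose in aerobic culture, 96 and 406 under oxygen limitation, and 152 and 715 in petite cells. The value was higher on xylose in each background and highest in petite cells on either sugar. The fitted difference was 1.90 ± 0.21 (SE, on the log2 scale; limma adjusted p = 0.0415), and the aerobic glucose value lay under the floor, so that the aerobic difference was at least 1.40. FOX2, which encodes the multifunctional enzyme with the hydratase and dehydrogenase steps, went from 243 to 582, from 146 to 854 and from 250 to 1092 in the same order of backgrounds. All xylose values lay above all glucose values. Its difference of 1.98 ± 0.27 was the largest estimate in the set, 3.94-fold, and missed the threshold (limma adjusted p = 0.0576).

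POX1, the acyl-CoA oxidase gene that opens the cycle, went from 122 to 161, from 30 to 66 and from 100 to 110 on its brightest probe set. The sugars overlapped, and the oxygen-limited value was the lowest on either sugar. The estimate was 0.21 ± 0.15 (limma adjusted p = 0.457). POX1 is the only gene of the set with several probe sets. Of its 4, 2261_s_at was the brightest, 5220_at went from 18 to 50, 47 to 89 and 39 to 97, and 2260_g_at lay under the floor on every array. On 5220_at the glucose values all lay under the floor and the xylose values were above it in oxygen-limited and petite cells, unlike the pattern on 2261_s_at.

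**Figure D2:**
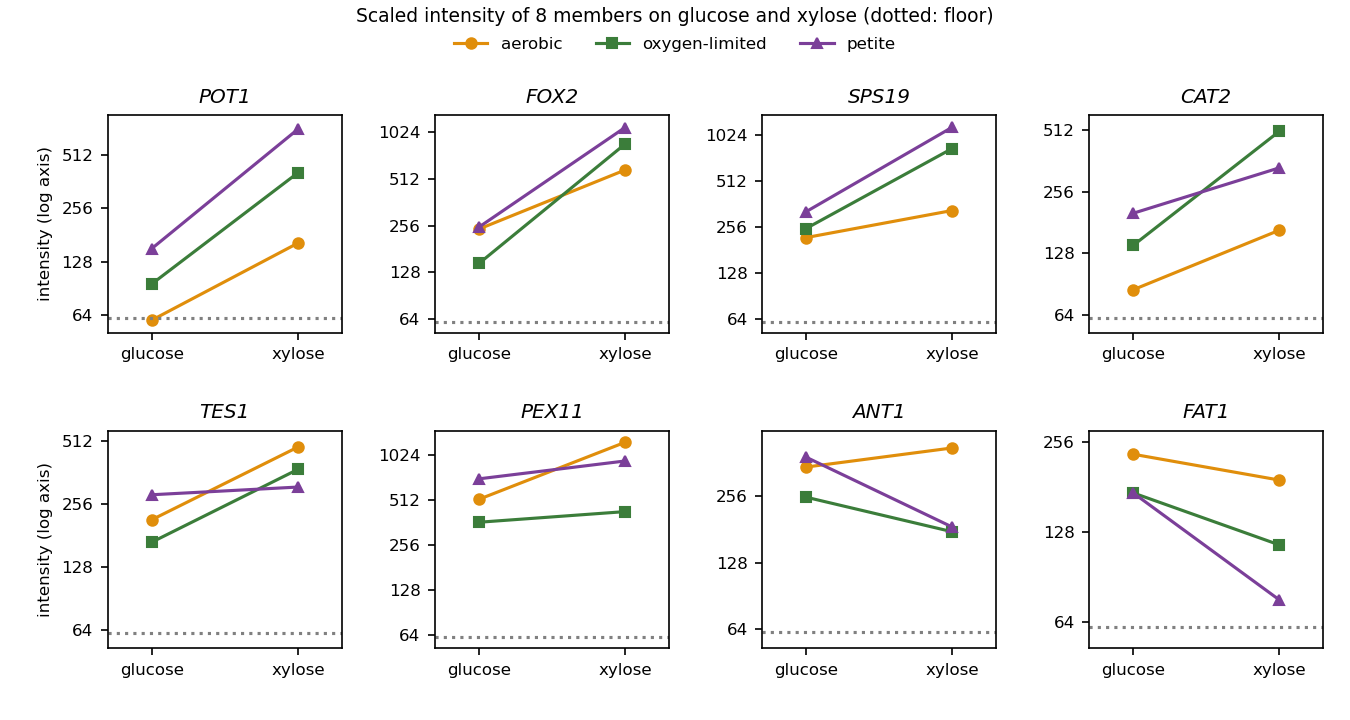
Scaled intensity (log axis) on glucose and on xylose for 8 genes, with a line for each of the 3 backgrounds, 1 array per point, and the floor dotted. The lines of POT1, FOX2, SPS19 and CAT2 run upward in each background, those of FAT1 run downward, and those of ANT1 run either way.

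The auxiliary enzymes act on unsaturated acyl chains or split thioesters. SPS19, the dienoyl-CoA reductase that handles double bonds at even positions, was at 219 and 329 in aerobic culture, 251 and 835 under oxygen limitation, and 323 and 1149 in petite cells. The xylose values lay above the glucose values throughout, and the aerobic step was the smallest. The estimate was 1.38 ± 0.28 (limma adjusted p = 0.111), and without the aerobic pair it was 1.78 and passed (limma adjusted p = 0.049). SPS19 did not pass in the other alternatives (limma adjusted p from 0.0794 to 0.455). TES1, the peroxisomal acyl-CoA thioesterase, went from 215 to 478, from 168 to 374 and from 283 to 308. Its aerobic and oxygen-limited differences were equal at 1.15, and the petite difference was 0.12. ECI1, the enoyl-CoA isomerase, was higher on xylose in all backgrounds, from 89 to 117, from 103 to 140 and from 94 to 171. DCI1, the dienoyl-CoA isomerase gene and paralog of ECI1, lay at 45 to 71 and was above the floor on 3 arrays. The estimates for TES1, ECI1 and DCI1 were 0.81, 0.56 and 0.08, none past the threshold (limma adjusted p from 0.17 to 0.781), and the 4 auxiliary genes had a median of 0.69.

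Genes of activation and transport lay on both sides of 0. FAT1, which takes part in fatty acid uptake and very long chain activation, was lower on xylose in each background, from 233 to 191, from 173 to 116 and from 173 to 76. Its estimate of -0.68 ± 0.21 was the lowest in the set (limma adjusted p = 0.181). ANT1, the carrier that brings ATP into the peroxisome, was 348 and 425 in aerobic culture, 254 and 177 under oxygen limitation, and 386 and 186 in petite cells. It was thus higher on xylose in aerobic culture and lower in both other backgrounds, with an estimate of -0.42 ± 0.28 (limma adjusted p = 0.414). PXA1 and PXA2 encode the partners that form the transporter for long chain acyl-CoA. PXA2 went from 89 to 108, from 97 to 278 and from 207 to 263, and PXA1 from 46 to 60, from 55 to 102 and from 73 to 123. Both were highest on the oxygen-limited and petite xylose arrays, and both were higher on xylose in each background measured. Their estimates were 0.71 and 0.49, short of the threshold (limma adjusted p = 0.23 and 0.246). FAA2, the peroxisomal acyl-CoA synthetase that activates medium chain acids, went from 19 to 50, from 14 to 46 and from 35 to 75. It lay above the floor on petite xylose alone, so its estimate of 0.10 depends on the floor. With the floor at the 10th percentile FAA2 was called higher on xylose. The median of these 5 genes was 0.10, which is the estimate of FAA2.

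Redox and acetyl export genes were higher on xylose in every measured pair. CAT2, the carnitine acetyltransferase that passes acetyl units out of the peroxisome, went from 85 to 166 and from 140 to 505, and in petite cells it was 1.67-fold higher on xylose, at 335. The steps were of unlike size, and the oxygen-limited one was the largest. Its estimate was 1.19 ± 0.25 (limma adjusted p = 0.112). IDP3, the peroxisomal isocitrate dehydrogenase that supplies NADPH for unsaturated chains, went from 47 to 80, from 20 to 71 and from 54 to 228. Petite xylose stood apart from its other values, and all glucose values lay under the floor, so its estimate of 0.82 ± 0.36 depends on the floor (limma adjusted p = 0.255). MDH3, the malate dehydrogenase that reoxidises NADH inside the peroxisome, went from 473 to 676, from 404 to 701 and from 434 to 540. All its xylose values exceeded all its glucose values, and its estimate was 0.54 ± 0.16 (limma adjusted p = 0.174).

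Among the peroxins 0 of 22 rose or fell on xylose, and limma found 5 higher and 0 lower at an unadjusted p under 0.05. The shares of all genes were 0.677% and 0.0732% by the adjusted p, and 12% and 9.79% by the unadjusted p. Their estimates ran from -0.22 to 0.68 with a median of 0.27, and 10 of 22 were higher and 1 lower on xylose in all 3 backgrounds, against 22.2% and 23.3% of all genes. The import receptors had a median of 0.58. PEX5, the receptor for the C-terminal targeting signal, went from 80 to 102, from 62 to 117 and from 85 to 146, and had the highest peroxin estimate, 0.68 ± 0.18 (limma adjusted p = 0.148). Its xylose values all lay above its glucose values. PEX7, the receptor for the N-terminal signal that Pot1 carries, was 80 on either sugar in aerobic culture, 86 and 173 under oxygen limitation, and 86 and 145 in petite cells, with an estimate of 0.58 ± 0.23 (limma adjusted p = 0.231). The aerobic values did not differ, and both other backgrounds were higher on xylose. PEX21, a partner of Pex7, went from 109 to 160, from 176 to 200 and from 128 to 141.

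The receptors dock at a membrane complex of Pex13, Pex14 and Pex17, which Pex8 links from the inside to the RING complex. PEX13 went from 117 to 144, from 73 to 105 and from 97 to 172, PEX14 from 140 to 159, from 221 to 227 and from 113 to 154, and PEX8 from 243 to 286, from 236 to 328 and from 251 to 271. These 3 were higher on xylose in each background, by 0.55, 0.22 and 0.27 in the fit. PEX17 went from 117 to 136, from 229 to 211 and from 154 to 111, with either direction represented. No docking gene passed (limma adjusted p from 0.177 for PEX13 to 0.711 for PEX17).

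PEX2 and PEX10 encode RING subunits that ubiquitinate the receptors, PEX4 the conjugating enzyme, PEX22 its anchor, PEX6 an ATPase that pulls receptors out and PEX15 the anchor of that ATPase. PEX2 went from 577 to 644, from 347 to 663 and from 462 to 489, and PEX10 from 155 to 177, from 195 to 188 and from 174 to 346. For each, 1 background carried most of the difference, oxygen limitation for PEX2 and petite for PEX10. PEX4 was 52 and 53, 83 and 99, and 73 and 88, PEX6 was 154 and 171, 227 and 227, and 165 and 140, and PEX15 was 301 and 279, 230 and 196, and 224 and 247. PEX22 went from 231 to 297, from 121 to 178 and from 211 to 241. The sugars overlapped for these 4 genes, and the 6 genes of the group had a median of 0.27.

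PEX3 and PEX19 insert membrane proteins. PEX3 went from 154 to 175, from 186 to 260 and from 204 to 389, and PEX19 was 111 and 104, 56 and 55, and 60 and 115. PEX3 was higher on xylose in each background, and PEX19 lay under the floor on 3 arrays. Their estimates were 0.53 and 0.27 (limma adjusted p = 0.211 and 0.542).

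Genes of peroxisome size and number had the lowest median of the peroxin groups, -0.16. PEX11, which promotes division and is itself a target of the oleate regulators, was at 520 and 1252 in aerobic culture, 365 and 430 under oxygen limitation, and 713 and 939 in petite cells. It was higher on xylose in each background and the aerobic step of 1.27 was the largest of any peroxin gene in any sugar pair, while its estimate was 0.63 ± 0.24 (limma adjusted p = 0.22). PEX29 went from 73 to 83, from 117 to 183 and from 121 to 190, with an estimate of 0.49. PEX31, PEX27, PEX30 and PEX32 had the 4 lowest of the group, at -0.22, -0.21, -0.19 and -0.16 (limma adjusted p from 0.418 to 0.562). PEX31 was lower on xylose in 3 of 3 backgrounds, from 159 to 128, from 174 to 161 and from 128 to 109. PEX27 was 86 and 23, 47 and 66, and 115 and 98, PEX30 was 72 and 77, 83 and 60, and 94 and 81, and PEX32 was 119 and 121, 133 and 113, and 91 and 76. These 3 had no common direction. PEX25, a paralog of PEX27 that also acts in division, was 146 and 180, 189 and 174, and 118 and 127, with an estimate of 0.10.

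Neither regulator passed on xylose. OAF1, the oleate-binding activator, went from 152 to 156, from 72 to 88 and from 187 to 222. PIP2, its partner and target, was 130 and 161, 171 and 308, and 251 and 223. OAF1 was higher on xylose in each background, and PIP2 was lower on xylose in petite cells alone. Estimates were 0.19 and 0.33 (limma adjusted p = 0.486 and 0.447).

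Set side by side, the enzyme and transporter genes had a median of 0.56 on xylose and the peroxin genes 0.27. Of the 15, 7 lay above the highest peroxin (FOX2, POT1, SPS19, CAT2, IDP3, TES1 and PXA2), and 2, ANT1 and FAT1, lay below the lowest. The enzyme median exceeded the peroxin median in each background, at 0.40 against 0.18 in aerobic culture, 0.79 against 0.19 under oxygen limitation and 0.35 against 0.17 in petite cells. Without the petite pair the peroxin median was 0.11. These medians are descriptions of lists chosen by name, and the difference between the lists was not tested.

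**Figure D3:**
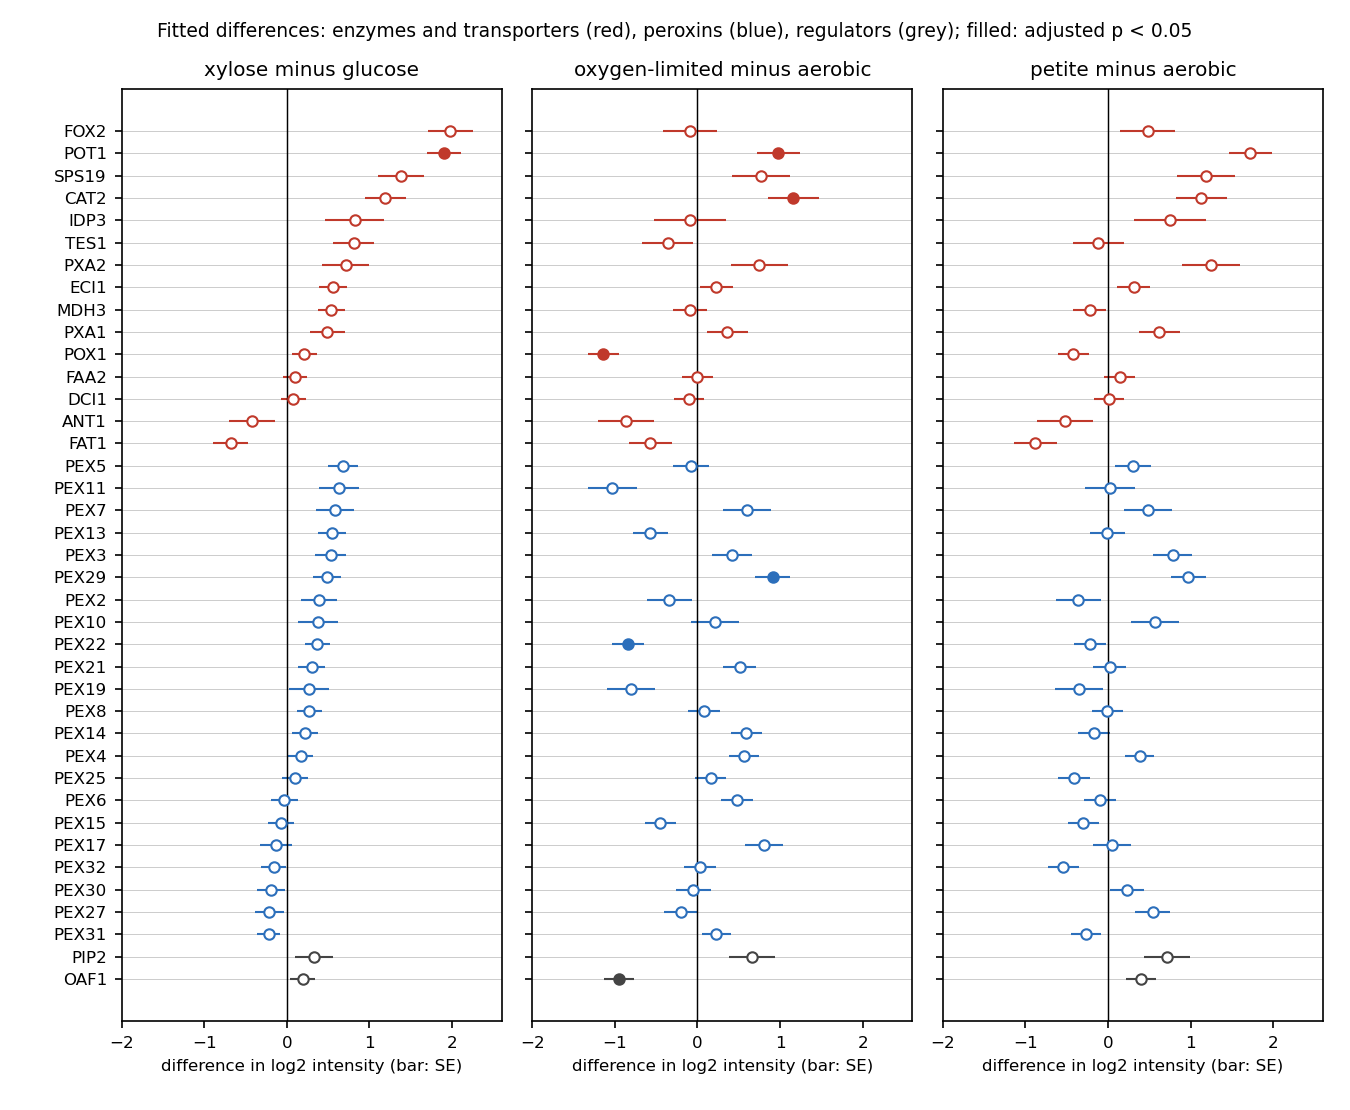
Fitted differences in log2 intensity (x axis; bars are the SE of the limma fit over 6 arrays) for the 39 genes in the 3 comparisons, with filled points at a limma adjusted p under 0.05. On xylose the enzymes spread from -0.68 to 1.98 and the peroxins from -0.22 to 0.68; POT1 is the filled point there, 6 points are filled for oxygen limitation and 0 for petite.

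In single sugar pairs, which were not tested, the genes at least 2-fold apart were mostly enzymes. In aerobic culture 4 of the 36 genes compared were at least 2-fold higher on xylose (FOX2, POT1, TES1 and PEX11) and 0 lower, against 3.13% and 2.1% of all genes. Under oxygen limitation 7 of 36 were higher (FOX2, CAT2, POT1, SPS19, PXA2, TES1 and PEX7) and 0 lower, against 8.76% and 4.24%. In petite cells 4 of 39 were higher (POT1, FOX2, IDP3 and SPS19) and 2 lower (FAT1 and ANT1), against 5.76% and 5.28%. FOX2 and POT1 passed 2-fold in all 3 backgrounds. Of these counts, the enzymes made up 3 of 4, 6 of 7 and 6 of 6.

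The call of POT1 on xylose was lost in 6 of 12 alternatives, over which the limma adjusted p ran from 0.0185 to 0.221. It was lost without the oxygen-limited pair, where the estimate was 1.81 (limma adjusted p = 0.203), and without the petite pair, where it was 1.74 (limma adjusted p = 0.113). It was also lost with the 40th percentile as the floor, with no filter, with quantile normalization and with the mean over probe sets (limma adjusted p = 0.19, 0.221, 0.0512 and 0.0526). FOX2 passed when the aerobic pair was left out, with an estimate of 2.34 (limma adjusted p = 0.0333), or with the 10th percentile as the floor (limma adjusted p = 0.0288). It also passed with the values as deposited, a variance trend or the running median along the probe set numbers removed (limma adjusted p = 0.0473, 0.0464 and 0.0477). In the other alternatives that kept its probe set FOX2 did not pass (limma adjusted p from 0.0737 to 0.221).

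The second comparison set oxygen-limited against aerobic cultures over both sugars. Under oxygen limitation POT1, CAT2 and PEX29 rose, and PEX22, OAF1 and, on its brightest probe set, POX1 fell. These are 3 of 39 genes in each direction, where 8.04% of all genes were called higher and 15.9% lower, so the share called higher was near the background and the share called lower under it. The 39 estimates were spread around 0, with 20 above, a median of 0.03 and a range from -1.14 to 1.16, and the median of all genes was -0.08. Limma found 8 higher and 6 lower at an unadjusted p under 0.05, against 16% and 25.8% of all genes. The split between directions depends on the scaling of the arrays, since the values as deposited gave 8 of the 39 higher and 1 lower (1032 and 430 of all genes) and quantile normalization 1 and 2 (432 and 558).

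CAT2 rose 2.24-fold. Its values given above were 85 and 166 in aerobic culture and 140 and 505 under oxygen limitation, on glucose and xylose. The difference was larger on xylose, at 1.60, than on glucose, at 0.72, and the fit gave 1.16 ± 0.31 (limma adjusted p = 0.0498). POT1 rose 1.97-fold, by 0.98 ± 0.26 (limma adjusted p = 0.0496), with 1.32 on xylose and at least 0.63 on glucose. Both calls lay close to the threshold: that of POT1 was lost in 8 of 10 alternatives (limma adjusted p from 0.0368 to 0.342) and that of CAT2 in 6 of 10 (limma adjusted p from 0.0266 to 0.129). PEX29, which takes part in controlling peroxisome size and number, was 73 and 83 in aerobic and 117 and 183 in oxygen-limited culture. The oxygen-limited values lay above the aerobic ones, and it rose by 0.91 ± 0.21 (limma adjusted p = 0.0365), a call lost in 3 of 10 alternatives (limma adjusted p from 0.0204 to 0.253).

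The genes that fell include an activator and, on 1 of its probe sets, the oxidase. The brightest probe set of POX1 was at 122 and 161 in aerobic culture and at 30 and 66 under oxygen limitation, the first of these under the floor, and its difference was -1.14 ± 0.19 (limma adjusted p = 0.0226). Of the other probe sets, 2260_g_at lay under the floor on every array and 5220_at on both aerobic arrays, so neither could show a fall. On 5220_at the mean oxygen-limited minus aerobic difference was 0.26 with the aerobic values raised to the floor. On 2259_at, at 52 (under the floor) and 75 in aerobic culture and at 85 and 68 under oxygen limitation, it was 0.16. The mean over all probe sets, which includes these floor values, gave -0.18 (limma adjusted p = 0.443). The fall of POX1 thus rests on 1 probe set. OAF1 was at 152 and 156 in aerobic culture and at 72 and 88 under oxygen limitation, with no overlap, and fell by 0.95 ± 0.18 on the log2 scale (limma adjusted p = 0.0274). PEX22 was at 231 and 297 against 121 and 178, and fell by 0.84 ± 0.19 (limma adjusted p = 0.0361). The call of POX1 was lost in 2 of 10 alternatives (limma adjusted p from 0.0155 to 0.443). Those of OAF1 and PEX22 were each lost in 3 of the 9 that kept their probe sets (limma adjusted p from 0.0248 to 0.0883 and from 0.0354 to 0.118).

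**Figure D4:**
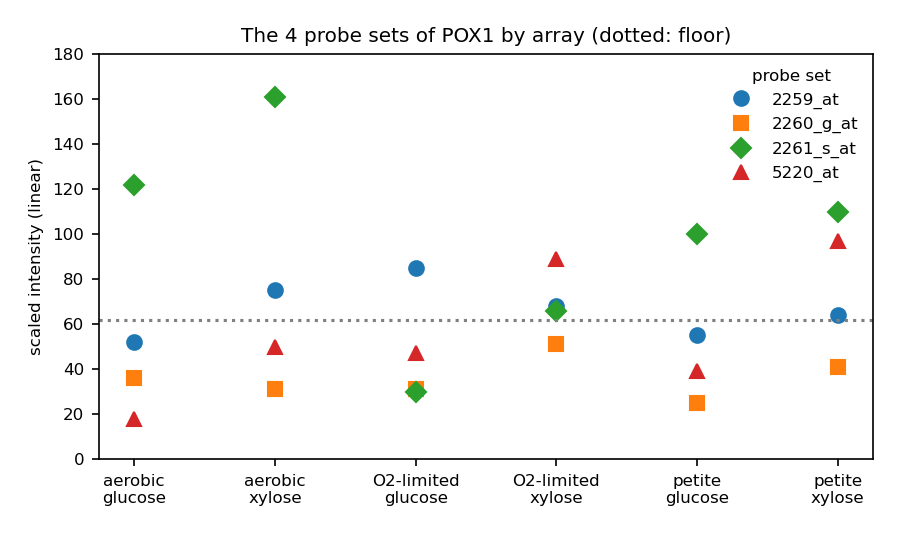
Scaled intensity (linear axis) of the 4 probe sets of POX1 on the 6 arrays, with the floor of 61.7 dotted. 2261_s_at falls from 122 and 161 in aerobic culture to 30 and 66 under oxygen limitation. 5220_at lies at 18 and 50 in aerobic culture, both under the floor, and at 47 and 89 under oxygen limitation.

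The probe sets of OAF1 and PEX22, like those of FOX2, TES1, PXA2 and PEX2, have numbers in the highest range of the probe set numbers. The 712 genes with such probe sets had a median of -0.46 in this comparison, against -0.02 for the other genes. With the running median along the probe set numbers removed, OAF1 was at -0.60 (limma adjusted p = 0.0763), while PEX22 still passed. The part of this trend in the values of OAF1 and PEX22 was not tested further. With the values as deposited, which put the median of all genes at 0.21, OAF1 was at -0.59 and PEX22 at -0.48 (limma adjusted p = 0.065 and 0.118). Without the petite pair, which enters this comparison only through the estimate of the spread and the sugar term, POT1, CAT2 and PEX29 missed the threshold (limma adjusted p = 0.0572, 0.0535 and 0.0509).

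Other genes of the set did not pass, and PEX17 and PEX11 were nearest to the threshold. PEX11 was at 520 and 1252 in aerobic culture and at 365 and 430 under oxygen limitation. The oxygen-limited values were both lower, most of all on xylose, and the estimate was -1.03 ± 0.30 (limma adjusted p = 0.0599). PEX17 was at 117 and 136 against 229 and 211, and its estimate of 0.80 ± 0.23 was the next highest peroxin (limma adjusted p = 0.0586). Of the docking complex, PEX14 was also higher, at 0.59, and PEX13 lower, at -0.57 (limma adjusted p = 0.0811 and 0.0998). PEX19 was at -0.80 ± 0.29, with both oxygen-limited values under the floor (limma adjusted p = 0.104), and PEX7 at 0.60 ± 0.29 (limma adjusted p = 0.171). Among the enzymes, SPS19 was at 0.77 ± 0.35 and PXA2 at 0.75 ± 0.35, each mainly through the xylose array, at 1.34 and 1.37 there and 0.20 and 0.13 on glucose. ANT1 and FAT1 were at -0.86 ± 0.34 and -0.57 ± 0.26, lower under oxygen limitation on both sugars, and PIP2 at 0.66 ± 0.28 (limma adjusted p from 0.12 to 0.164 for these 5 genes).

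On glucose, 0 of the 35 genes compared were at least 2-fold higher under oxygen limitation and 1, OAF1, was at least 2-fold lower, against 4.5% and 11.5% of all genes. On xylose, 6 of 38 were higher (CAT2, PXA2, SPS19, POT1, PEX29 and PEX7) and 3 lower (PEX11, POX1 and ANT1), against 9.36% and 15.4%. The enzyme median was -0.23 on glucose and 0.15 on xylose, and the peroxin median 0.14 on either. In the fit the enzymes were at -0.09 and the peroxins at 0.12; this order was turned with the running median along the probe set numbers removed, where the difference of the medians was 0.06 in place of -0.21.

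The third comparison set petite against aerobic cells and uses the same aerobic arrays as the oxygen comparison, so these comparisons are not independent. No gene of the set passed, and limma called 1 gene higher (0.0183% of 5462) and 1 lower (0.0183%) in all. At an unadjusted p under 0.05 it found 7 of the 39 higher and 2 lower, against 11.6% and 22.2% of all genes. With the values as deposited 2 of the 39, POT1 and PEX29, rose and 0 fell, among 168 and 31 of all genes. The estimates had a median of 0.05, with 0.31 for the enzymes and 0.01 for the peroxins, against -0.11 for all genes. The xylose side of this comparison sets cells moved to xylose for 24 hours against cells grown on it, a difference in culture that cannot be told apart from the strain.

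POT1 had the highest estimate, 1.72 ± 0.26 (limma adjusted p = 0.0515). It was at 60 and 163 in aerobic cells and at 152 and 715 in petite cells, higher in the petite strain on both sugars, by at least 1.31 on glucose and by 2.14 on xylose. POT1 passed with the 10th percentile as the floor, with an estimate of 1.75 (limma adjusted p = 0.0338), and with the values as deposited (limma adjusted p = 0.0474). It also passed with a variance trend, the running median removed or the high-numbered probe sets left out (limma adjusted p = 0.04, 0.0407 and 0.0486). In the other alternatives it did not pass (limma adjusted p from 0.0535 to 0.139). PXA2 followed with 1.25 ± 0.35, SPS19 with 1.18 ± 0.35 and CAT2 with 1.13 ± 0.31 (limma adjusted p = 0.0801, 0.0872 and 0.0792). All 3 were higher in petite cells on both sugars, PXA2 and CAT2 by similar amounts on each and SPS19 by 0.56 on glucose and 1.81 on xylose.

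Among the peroxins PEX29 was highest, at 0.97 ± 0.21 (limma adjusted p = 0.0561), with 121 and 190 in petite cells against 73 and 83. PEX3 was at 0.78 ± 0.24 and PEX10 at 0.57 ± 0.29 (limma adjusted p = 0.0933 and 0.233). Both had their highest value on petite xylose, at 389 and 346. The lowest peroxins were PEX32 at -0.54 ± 0.19, PEX25 at -0.41 ± 0.19 and PEX2 at -0.36 ± 0.27 (limma adjusted p = 0.117, 0.204 and 0.386). The lowest enzymes were FAT1 at -0.88 ± 0.26, ANT1 at -0.52 ± 0.34 and POX1 at -0.42 ± 0.19 (limma adjusted p = 0.0892, 0.328 and 0.181). FAT1 was lower in petite cells on both sugars, whereas ANT1 was lower on xylose alone. OAF1 and PIP2 were higher in petite cells on both sugars, at 0.40 ± 0.18 and 0.71 ± 0.28 in the fit (limma adjusted p = 0.184 and 0.149).

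On glucose 3 of the 37 genes compared were at least 2-fold higher in petite cells (POT1, CAT2 and PXA2) and 0 lower, against 4.72% and 5.05% of all genes. On xylose 7 of 39 were higher (POT1, SPS19, IDP3, PXA2, PEX29, PEX3 and CAT2) and 2 lower (FAT1 and ANT1), against 8.44% and 13.5%. Enzyme and peroxin medians were 0.15 and 0.09 on glucose, and 0.54 and -0.06 on xylose.

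**Figure D5:**
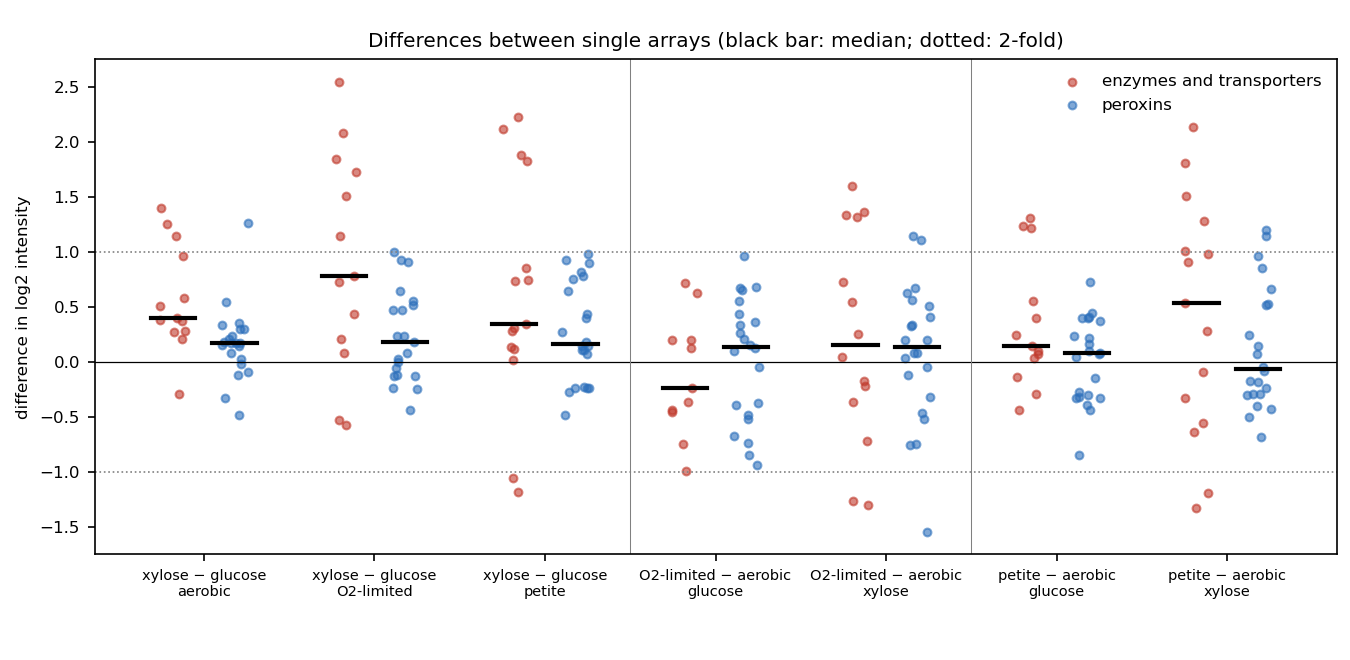
Differences in log2 intensity between single arrays for the enzyme and transporter genes (red) and the peroxin genes (blue) in 7 pairs, 1 point per gene, with medians as black bars and 2-fold as dotted lines; pairs with both arrays at the floor are left out. The enzyme median lies above the peroxin median in 6 of the 7 pairs and below it for oxygen limitation on glucose, at -0.23 against 0.14. The pairs share arrays, and for oxygen limitation on xylose the medians are nearly equal, at 0.15 and 0.14.

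Related genes of peroxisomes and fatty acid use were taken from a further list of 34, of which 31 were tested. This list too was drawn up with earlier results of these data known. On xylose 3 rose and 0 fell, against 0.677% and 0.0732% of all genes, with a median of 0.16. ADR1, the glucose-repressed activator of the enzyme genes, was at 39, 38 and 72 on glucose and at 267, 242 and 215 on xylose, in aerobic, oxygen-limited and petite cells. All xylose values lay far above the glucose values, and ADR1 rose by 1.89 ± 0.17 (limma adjusted p = 0.0286). Its aerobic and oxygen-limited glucose values lay under the floor, so the differences in these backgrounds are lower bounds. MDH2, the cytosolic malate dehydrogenase, rose by 1.34 ± 0.15, and FAT3, which takes part in fatty acid uptake, by 3.24 ± 0.39 with a high-numbered probe set (limma adjusted p = 0.043 and 0.047). FAT3 was at 48, 39 and 73 on glucose, 48 and 39 being under the floor, and at 720, 263 and 1233 on xylose. These 3 calls were lost with the floor at the 40th percentile, with no filter and without the oxygen-limited pair. There, 0 of all genes were called higher on xylose. CTA1, the peroxisomal catalase that removes the peroxide made by Pox1, was at 31 and 71 in aerobic culture, 94 and 147 under oxygen limitation, and 121 and 971 in petite cells. Petite xylose stood far above the rest, and its estimate on xylose was 1.28 ± 0.56 (limma adjusted p = 0.255). The lowest estimates on xylose were those of the acyl-CoA synthetases FAA1 and FAA4, at -0.58 and -0.53, and of the peroxisomal citrate synthase CIT2, at -0.44, none past the threshold (limma adjusted p from 0.27 to 0.677).

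Under oxygen limitation 1 of the 31 rose, the nicotinamidase PNC1 by 0.82 ± 0.21, and 2 fell, the peroxisomal protein gene PXP2 by 1.53 ± 0.25 with a high-numbered probe set and SNF4, the gamma subunit of the Snf1 kinase, by 0.65 ± 0.17 (limma adjusted p = 0.0465, 0.0223 and 0.0496). Of all genes 8.04% were called higher and 15.9% lower. The median of the 31 was 0.10. The highest estimates were those of the malate synthase MLS1 at 1.36 ± 0.41, the mitochondrial carnitine carrier CRC1 at 0.94 ± 0.35 and the glycerol-3-phosphate dehydrogenase GPD1 at 0.90 ± 0.28, and after PXP2 the lowest were AAT2 at -0.99 ± 0.29 and CIT2 at -0.83 ± 0.70. None of these 5 passed (limma adjusted p from 0.0599 to 0.409). In petite cells 0 of 31 passed, with a median of -0.04. The highest were CTA1 at 2.37 ± 0.68, PCS60, a peroxisomal AMP-binding enzyme, at 1.57 ± 0.20 and STR3, the peroxisomal cystathionine beta-lyase, at 1.03 ± 0.19 (limma adjusted p from 0.0515 to 0.0841). The lowest were ACO1, AAT2 and SNF4, at -1.22, -0.85 and -0.78, for aconitase, aspartate aminotransferase and the kinase subunit (limma adjusted p from 0.0561 to 0.334).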

How the data were processed

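Total RNA of 6 samples, 1 per condition, was hybridised to Affymetrix yeast arrays. The deposited table holds linear intensity, 1 value per probe set and array; which software made it, and how it averaged or scaled, is not given in the sources used here. Among 9335 probe sets were 60 controls and 1 without a value. Of the other 9274, 6504 were annotated to 1 gene, 328 to several and 2442 to none, which gave 5656 genes.

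Arrays were brought to the same median, dim values were raised to the 25th percentile (61.7), and the log2 scale was used. A gene with several probe sets was represented by the brightest on average. Genes above the floor on at least 1 array (5462) were fitted with limma 3.58.1 in R 4.3.3 on background and sugar, with 2 residual degrees of freedom and Benjamini-Hochberg adjustment over all of them at 0.05. With 1 array per condition, sugar is taken to act alike in each background, no interaction was tested, and the p-values measure the spread left by that model, not the spread between cultures. Differences between 2 arrays carry no p-value, and are not given where neither array was above the floor. The number of arrays limits the precision.

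The genes, lists and tests were chosen with earlier results of these data known. Full statistics were given for genes that passed, for the 3 highest and 3 lowest enzymes and peroxins per comparison, and for OAF1 and PIP2; related genes were named where they passed or were among the 3 highest or lowest. Of the related genes, PEX18 lay under the floor on every array. Alternatives were other scalings, floors, filters, probe set summaries, a variance trend, removal of a trend along the probe set numbers, omission of the probe sets with the highest numbers (712 genes), omission of array pairs and a 3-fold threshold. The fit was tested on simulated data with the same sugar effect in each background, placed on genes well above the floor. That test does not cover genes near the floor or sugar effects that differ between backgrounds. Promoter and protein sequences were not used here.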

Additional observations from a re-analysis of the deposited data

Results flagged for a closer look

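For 4 genes the xylose difference had opposite signs in 2 backgrounds and differed at least 2-fold between them, and with 1 array per condition this difference was not tested. ANT1 stood at 0.29 on the log2 scale in aerobic culture, at -0.52 under oxygen limitation and at -1.05 in petite cells. PEX7 was at -0.01, 1.00 and 0.76 in the same order, PEX10 at 0.19, -0.05 and 0.99, and PIP2 at 0.31, 0.85 and -0.17. The opposing value of PEX7 in aerobic culture and that of PEX10 under oxygen limitation lay close to 0. The petite values also carry the difference in culture between the petite arrays. In all, 12 of the 39 genes had xylose differences of either sign, and 0 were at least 2-fold apart in opposite directions.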

How the results depend on the processing

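No gene that passed changed direction under any alternative run, but most counts of calls moved, and the enzyme median for oxygen limitation changed sign, and the cause was not tested except where stated. On xylose the numbers of all genes called higher and lower were 37 and 4; they were 20 higher with quantile normalization, 83 and 15 with the floor at the 10th percentile, 0 and 0 with it at the 40th or with no filter (which keeps genes at the floor on every array, with no variance), 22 and 2 with the mean over probe sets, 60 and 13 with the running median removed, 7 lower with a variance trend and 8 lower without the high-numbered probe sets. Leaving out a pair gave 0 to 42 higher and 0 to 7 lower. Of the 39 genes, 1 was called higher; 2 were with the values as deposited, a variance trend or the running median removed, 3 with the floor at the 10th percentile, 0 with quantile normalization, the 40th percentile, no filter or the mean over probe sets, and 0 to 3 when a pair was left out. The peroxin median of 0.27 became 0.29 as deposited, 0.25 at the 40th percentile, 0.26 with the running median removed, 0.24 without high-numbered probe sets and 0.11 to 0.28 when a pair was left out.

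For oxygen limitation, 439 genes were higher and 868 lower; this became 1032 and 430 as deposited, 558 lower with quantile normalization, 214 higher at the 40th percentile, and 229 and 467 with no filter. Of the 39 genes, 3 and 3 were called; 8 and 1 were as deposited, 1 higher with quantile normalization or the mean over probe sets, 0 and 1 at the 40th percentile, 0 higher with no filter, 1 and 1 without high-numbered probe sets, which drops OAF1 and PEX22, and 0 higher without the petite pair. The enzyme median of -0.09 became 0.26 as deposited and 0.21 with the running median removed, and the peroxin median of 0.12 became 0.48 and 0.15; it was 0.19 with quantile normalization, the 10th percentile or no high-numbered probe sets. For petite, 1 higher and 1 lower became 168 and 31 as deposited, 219 and 340 at the 10th percentile, 133 and 230 with a variance trend, 227 and 304 with the running median removed, 74 and 127 without high-numbered probe sets, and 0 and 0 with quantile normalization, the 40th percentile, no filter or the mean over probe sets; without the oxygen-limited pair 0 were higher. Of the 39 genes 0 were higher; 2 were as deposited or with the running median removed, and 1 at the 10th percentile, with a variance trend or without high-numbered probe sets. The enzyme and peroxin medians of 0.31 and 0.01 became 0.59 and 0.28 as deposited, which moved the median of all genes from -0.11 to 0.11, and for oxygen limitation from -0.08 to 0.21. The fit itself already pairs the sugars within each background. No other pairing was possible, because the labels give no replicate numbers to pair by.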
